A study of Mus musculus with 6 samples.

Results

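The genes described are those of the mitochondrial respiratory chain and ATP synthase that are encoded in the nucleus, measured in murine bone marrow–derived macrophages. They were chosen by name, as every non-control spot whose gene name starts with Nduf followed by a, b, c, s or v, with Uqcr, with Cox followed by a number from 4 to 8, or with Atp5, or is Sdha, Sdhb, Sdhc or Sdhd. The rule found 90 gene names on 143 spots, out of 34844 gene names on 59305 spots. Macrophages were grown for 7 days from the bone marrow of wild-type female C57/B6 mice, in medium conditioned by L929 cells. The study's methods write the strain as C57BL6/J. The cells fell into 3 groups of 2 arrays, each group with samples of independent experiments. The first group was untreated. The second received LPS, the endotoxin of gram-negative bacteria sensed by TLR4, for 4 h. The third received HBX41,108, a small molecule inhibitor of the deubiquitinase USP7, at 10 μM for 30 min before the same LPS stimulation (LPS+inhibitor). The series description gives 100 ng/ml LPS, while the sample labels attach a larger unit to the same number, and the labels put the age of the mice at 6 to 8 weeks, while the study's methods give an older range. No source used here says whether cells without the inhibitor received its solvent, so solvent and inhibitor cannot be told apart.

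The respiratory chain passes electrons from NADH, through complex I, and from succinate, through complex II, to ubiquinone, then through complex III and cytochrome c to complex IV, which reduces oxygen. Complexes I, III and IV pump protons across the inner mitochondrial membrane, and complex V, the ATP synthase, uses that gradient to make ATP. Macrophages activated with LPS are known to move from mitochondrial respiration toward glycolysis, with succinate, the substrate of complex II, as a signal.

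By complex, 36 member genes encode subunits of complex I, 4 of complex II, 8 of complex III, 20 of complex IV and 15 of complex V. Complex IV here includes Ndufa4, a complex IV subunit despite its name, and its relative Ndufa4l2. The other 7 names are not subunits. They are the complex I assembly factors Ndufaf1, Ndufaf2, Ndufaf3 and Ndufaf4, Atp5sl, now called Dmac2 and also known for complex I assembly, Atp5s, and Cox4nb, now called Emc8, a part of a membrane complex of the endoplasmic reticulum. Of the 90 genes, 86 were well above background on all 6 arrays. The other 4, Cox7b2, Cox8b, Cox8c and Ndufa4l2, were above background on 0 arrays, and no fold is given for them.

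All 6 arrays lay on 1 slide, each group in a slide column of its own, so slide column and treatment cannot be told apart. Between 25002 and 27467 spots per array were well above background and 0 were saturated. The number of arrays limits the precision, and with 2 arrays a group the smallest two-sided p of an exact permutation test is 0.333. All 9 macrophage markers examined, among them Csf1r, Cd68 and Emr1, were above background on all 6 arrays. Of the markers of other cells, 6 of 8 for neutrophils, 2 of 5 for B cells, 1 of 6 for T and NK cells, 1 of 4 for dendritic cells, and 0 of those for fibroblasts (6 genes), erythroid cells (5 genes) and mast cells (3 genes) were above background on all arrays. The summed signal of the neutrophil markers was 5234 to 6893 without stimulation, 5866 to 11572 with LPS and 6200 to 9622 with LPS+inhibitor. That of the dendritic cell markers was 38053 to 45042, 24853 to 25331 and 34656 to 51407, with Siglech the 1 marker above background on all arrays and Flt3 and Xcr1 above it on 0. Over the 4 dendritic cell markers the median difference with LPS was 0.71, with 0 called lower and 1, Zbtb46, called higher. For LPS+inhibitor minus LPS their median was −0.65, with 0 called lower and 0 higher, though their sum rose. The summed signal of the macrophage markers was 729021 to 735393 without stimulation, 727387 to 754080 with LPS and 593711 to 632181 with LPS+inhibitor, where Cd14 and Fcgr1 were called lower than with LPS. With LPS, Itgam was called lower and Cd14 higher than in untreated cells. Of the B cell markers, Pax5, above background on 2 arrays, was called higher with LPS+inhibitor than in either other group. Over the 5 B cell markers the median difference of LPS+inhibitor was −0.75 from LPS and 0.35 from untreated cells, with 0 called lower. Their summed signal was 668 to 1057 without stimulation, 533 to 1153 with LPS and 315 to 715 with LPS+inhibitor. The part of all these cell markers in the results was not tested. In bulk RNA, fewer cells of a type and less RNA per cell cannot be told apart.

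To show what lies in front of the members that passed the threshold under at least 5 of 6 ways of processing the arrays, called scalings and listed with the medians of the members, the 250 bases before the gene start are printed for 5 genes, from RefSeq on build GRCm38.p6, 5′ to 3′ on the strand of the gene. Capitals mark the core motif of NRF1, GCGCATGC or GCATGCGC on the other strand, a factor known to drive many respiratory chain genes. The window is chr4:140961021-140961270 on the + strand for Sdhb, the iron-sulfur subunit of complex II. It is chr15:82354292-82354541 on the − strand for Ndufa6, a complex I accessory subunit. For Cox7a2l, known for a part in supercomplexes of complexes III and IV that was not measured here, it is chr17:83514334-83514583 on the − strand. It is chr7:4753095-4753344 on the − strand for Cox6b2, a complex IV subunit known from testis. For Atp5sl it is chr7:25619164-25619413 on the + strand, the first of its 2 listed starts. Sdhb and Ndufa6 each hold 1 NRF1 core, beginning 54 and 83 bases before the gene start, and the windows of Cox7a2l, Cox6b2 and Atp5sl hold 0.
Sdhb: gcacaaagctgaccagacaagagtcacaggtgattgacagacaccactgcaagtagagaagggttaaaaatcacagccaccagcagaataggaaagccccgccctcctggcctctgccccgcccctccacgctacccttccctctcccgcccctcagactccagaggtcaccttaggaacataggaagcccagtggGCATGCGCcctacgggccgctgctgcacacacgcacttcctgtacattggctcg
Ndufa6: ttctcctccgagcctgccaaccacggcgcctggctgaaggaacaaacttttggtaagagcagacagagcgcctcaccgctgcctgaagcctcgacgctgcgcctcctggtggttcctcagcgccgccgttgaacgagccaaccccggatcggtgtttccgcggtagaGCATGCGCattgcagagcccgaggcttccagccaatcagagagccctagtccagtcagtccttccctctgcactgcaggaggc
Cox7a2l: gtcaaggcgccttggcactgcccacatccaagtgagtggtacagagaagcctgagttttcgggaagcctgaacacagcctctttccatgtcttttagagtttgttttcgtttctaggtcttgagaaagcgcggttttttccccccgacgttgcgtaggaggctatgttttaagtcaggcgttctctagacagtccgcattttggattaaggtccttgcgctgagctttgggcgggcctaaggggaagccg
Cox6b2: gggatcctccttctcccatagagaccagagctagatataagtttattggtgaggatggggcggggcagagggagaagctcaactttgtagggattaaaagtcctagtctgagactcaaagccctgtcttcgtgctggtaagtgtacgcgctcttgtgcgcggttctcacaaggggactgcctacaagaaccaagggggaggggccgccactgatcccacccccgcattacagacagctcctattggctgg
Atp5sl: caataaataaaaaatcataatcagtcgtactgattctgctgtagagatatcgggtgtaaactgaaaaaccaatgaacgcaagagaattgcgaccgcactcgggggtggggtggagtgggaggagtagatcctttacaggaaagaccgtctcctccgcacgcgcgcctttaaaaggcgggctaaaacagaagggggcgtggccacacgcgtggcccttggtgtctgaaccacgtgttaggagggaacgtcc

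Of the 90 members, 74 matched a RefSeq promoter entry, with 80 windows in all. The NRF1 core was in 9 of those 80 windows (11.2%), against 741 of 32851 windows over all genes (2.26%). Complex I held it in 3 of 34 windows, complex II in 1 of 3, complex III in 0 of 5, complex IV in 1 of 14 and complex V in 3 of 17. The core motif of the ETS family, to which GABP belongs, CCGGAAGT or ACTTCCGG, was in 3 of the 80 windows (3.75%) and in 945 of all windows (2.88%). A match of letters is a description, not a site.

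The first comparison asks how LPS changed these genes. On the quantile-normalized log2 scale, on which every array has the same distribution of values, most members were lower with LPS, but this direction depended on how the arrays were scaled. The median difference over the 90 members was −0.39, and 84 were below 0. With 75th percentile scaling, which sets 1 percentile of each array equal, the median was 0.11, with 29 members below 0. That scaling moved the median difference of all 34844 genes from 0.0016 to 0.40. The 3805 other genes with a mean log2 signal of at least 12 had a median of −0.31 under quantile normalization and 0.23 under 75th percentile scaling. The median of the members thus differed from theirs by −0.080 and by −0.12. With cyclic loess, which lets the scaling vary with brightness and was added after seeing the data, the median of the members was −0.066 and that of the other bright genes −0.021. The 6 scalings are these 3, the centring of each array on the bright genes (also added after seeing the data), normexp background correction before quantile normalization, and the table of values deposited by the authors. Of the 90 members, 24 were below 0 under all 6, 5 were above 0 under all 6, and 61 changed sign.

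**Figure D1:**
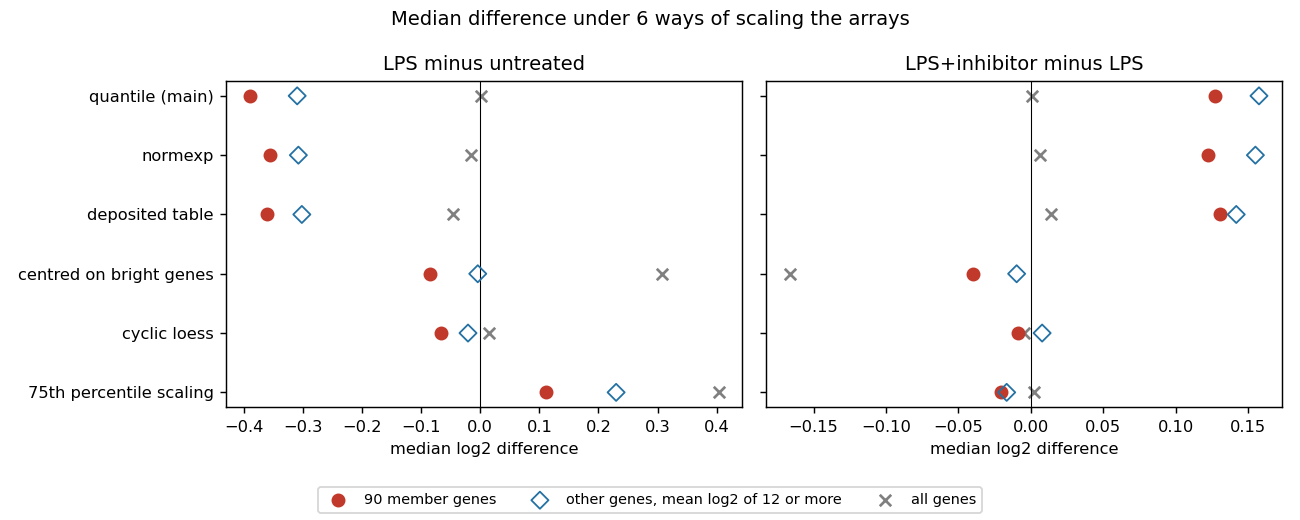
Median log2 difference (horizontal axis) under 6 ways of scaling the arrays (rows), for LPS minus untreated and LPS+inhibitor minus LPS, with the 90 member genes as filled circles, the 3805 other genes with a mean log2 signal of at least 12 as open diamonds and all genes as crosses. For LPS minus untreated the members move from −0.39 with quantile normalization to 0.11 with 75th percentile scaling, and in each row they lie to the left of the other bright genes.

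Under quantile normalization, 35 of the 90 members (38.9%) were called lower with LPS and 1 (1.11%) higher, at an adjusted p of 0.05 from limma over all probes. Over all genes 12.8% were called lower and 7.98% higher. Among genes above background on all arrays the background was 23.9% lower and 14.1% higher, and among genes with a mean log2 of at least 12 it was 29.6% lower and 14% higher. Of the 70 members that bright, 32 (45.7%) were called lower and 0 higher. The excess of lower calls over all genes did not hold under each alternative. With 75th percentile scaling 3 members (3.33%) were called lower and 5 (5.56%) higher, against 11.6% and 35% of all genes. With the log2 values that the authors deposited, 7 members (7.78%) were called lower, against 8.85% of all genes, and with cyclic loess 5 (5.56%), against 9.27%. Without untreated replicate 1 the count was 5 (5.56%), against 5.93% of all genes, and without untreated replicate 2 it was 3 (3.33%), against 4.72%. In these 5 fits the members' share called lower was below that of all genes. Without LPS replicate 1 the count was 8 (8.89%), against 5.86%, and without LPS replicate 2 it was 11 (12.2%), against 7.39%. Without LPS+inhibitor replicate 2 it was 22 (24.4%), against 11.5%.

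Among complexes I to V, complex II had the lowest median difference with LPS under each of the 6 scalings. The medians were −0.46 in complex I, −0.57 in complex II, −0.33 in complex III, −0.21 in complex IV and −0.34 in complex V with quantile normalization, and 0.061, −0.037, 0.26, 0.24 and 0.17 with 75th percentile scaling, so that the sign of every complex but II turned. With quantile normalization 12.8% of all genes were called lower. The share was 23.9% among genes above background on all arrays and 29.6% among genes with a mean log2 of at least 12. Called lower among the members were 20 of 36 of complex I, 2 of 4 of complex II, 2 of 8 of complex III, 2 of 20 of complex IV and 7 of 15 of complex V. In the same order the counts were 22, 3, 3, 4 and 8 with normexp, 8, 1, 1, 1 and 1 with centring on bright genes, 4, 1, 0, 1 and 0 with the deposited table and 2, 1, 0, 1 and 0 with cyclic loess, where 15.3%, 9.47%, 8.85% and 9.27% of all genes were called lower. With 75th percentile scaling 0 subunits of any complex were called lower, and 4 of complex IV and 1 of complex V were called higher, against 11.6% and 35% of all genes. These were Cox6b2, Cox5a and Atp5e, together with Cox7b2 and Cox8c, which were above background on 0 arrays. The differences between complexes were not tested.

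**Figure D2:**
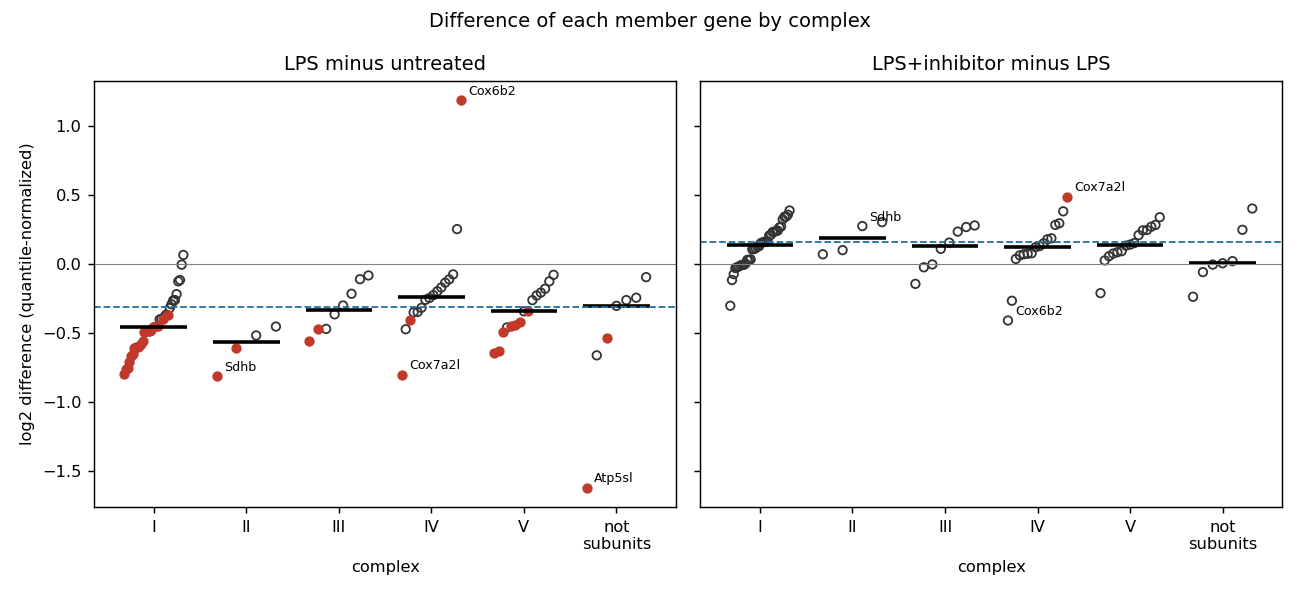
Log2 difference (vertical axis, quantile-normalized) of each of the 86 member genes above background, by complex, for LPS minus untreated and LPS+inhibitor minus LPS. Filled points passed an adjusted p of 0.05, black bars are medians and the dashed line is the median of the 3805 other bright genes (−0.31 and 0.16). Atp5sl at −1.63 and Cox6b2 at 1.19 are the lowest and highest members in the LPS comparison, under 75th percentile scaling too.

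In complex I, Ndufv1, which binds NADH, measured 13.98 and 14.07 on the untreated arrays, 13.35 and 13.51 after LPS, and 13.43 and 13.48 after LPS+inhibitor. Both stimulated groups lay below the untreated arrays, and its difference with LPS was −0.60 (standard error 0.082, adjusted p = 0.0181), or −0.065 with 75th percentile scaling. The iron-sulfur subunit Ndufs1 differed by −0.49 (standard error 0.16, adjusted p = 0.148) and did not pass. Ndufab1, the mitochondrial acyl carrier protein that also sits in complex I, overlapped between groups, with 9.94 and 9.95 on the untreated arrays and 9.80 and 10.09 after LPS.

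The 3 complex I genes with the lowest difference were Ndufb10, Ndufv3 and Ndufa6. The membrane arm subunit Ndufb10 (probe at chr17:24859019-24859078, mm9) measured 14.80 and 14.83 on the untreated arrays, 13.88 and 14.16 after LPS, and 14.20 and 14.13 after LPS+inhibitor. It differed by −0.80 (standard error 0.11, adjusted p = 0.0199) with LPS and was below 0 under all 6 scalings, passing the threshold under 4 of them. Ndufa6 (probe at chr15:82181444-82181503, mm9) measured 13.48 and 13.57 on the untreated arrays, 12.70 and 12.84 after LPS, and 13.10 and 13.12 after LPS+inhibitor. It was 1.69-fold lower with LPS, a log2 difference of −0.76 (standard error 0.080, adjusted p = 0.0100), and passed under 5 of the 6 scalings, the exception being 75th percentile scaling (−0.27). The accessory subunit Ndufv3 gave −0.76 (adjusted p = 0.0204) on its brightest probe, but its 2 dimmer probes differed by −1.34 and 0.43, so its value depends on the probe.

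Complex II couples the citric acid cycle to the chain. Under quantile normalization all 4 of its subunits were below untreated cells, and with 75th percentile scaling 3 of 4 were, Sdha being at 0.034. The flavoprotein subunit Sdha measured 13.43 and 13.40 on the untreated arrays, 12.99 and 12.92 after LPS, and 12.87 and 13.19 after LPS+inhibitor, a difference of −0.45 (adjusted p = 0.0953) with LPS. Sdhb (probe at chr4:140535052-140535108, mm9) measured 15.27 and 15.29 on the untreated arrays, 14.44 and 14.49 after LPS, and 14.75 and 14.73 after LPS+inhibitor. Its 3 groups did not overlap, and Sdhb was 1.76-fold lower with LPS, a log2 difference of −0.82 (standard error 0.057, adjusted p = 0.00493). A dimmer second probe of Sdhb differed by −0.52 (adjusted p = 0.0253). Under the 17 alternatives the difference of Sdhb stayed below 0, between −0.84 and −0.21, and 75th percentile scaling was the one under which it did not pass (adjusted p = 0.176). Of the membrane anchors, Sdhd differed by −0.61 (adjusted p = 0.0380) and Sdhc by −0.52 (adjusted p = 0.150). With 75th percentile scaling they were at −0.054 and −0.020.

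In complex III, the Rieske iron-sulfur subunit Uqcrfs1 measured 12.95 and 13.07 on the untreated arrays and 12.84 and 13.01 after LPS, a difference of −0.084 (adjusted p = 0.782). The core proteins Uqcrc1, at −0.11 (adjusted p = 0.643), and Uqcrc2, at −0.22 (adjusted p = 0.391), did not pass either. The small subunits Uqcrq, at −0.56 (standard error 0.061, adjusted p = 0.0109), and Uqcr10, at −0.48 (standard error 0.059, adjusted p = 0.0142), were called lower with quantile normalization and were at 0.059 and 0.089 with 75th percentile scaling.

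In complex IV, Cox4i1 differed by −0.25 (adjusted p = 0.166), Cox5a by −0.11 (adjusted p = 0.359), Cox6a1 by −0.35 (adjusted p = 0.196) and Cox7a2 by −0.20 (adjusted p = 0.322), none of which passed. Cox5a was called higher with 75th percentile scaling (0.43, adjusted p = 0.0346). The forms known from other tissues did not pass either. They were Cox4i2, known from lung and induced by low oxygen, at 0.25 (adjusted p = 0.441), and the heart and muscle forms Cox6a2, at −0.17 (adjusted p = 0.871), and Cox7a1, at −0.076 (adjusted p = 0.568).

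Cox6b2 (probe at chr7:4703488-4703547, mm9) was the 1 member called higher. It measured 6.54 and 6.54 on the untreated arrays, 7.72 and 7.73 after LPS, and 7.25 and 7.38 after LPS+inhibitor, a low signal, though above background on all 6 arrays. The groups did not overlap. It rose 2.28-fold with LPS, a log2 difference of 1.19 (standard error 0.071, adjusted p = 0.00413), and passed under all 17 alternatives, between 0.81 and 1.49. Cox6b1, the form of the same subunit found in most tissues, differed by −0.14 (adjusted p = 0.476). It is named here after its values were seen.

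Cox7a2l (brightest probe at chr17:83901272-83901331, mm9) was measured by 3 probes. The brightest read 15.93 and 15.94 on the untreated arrays, 15.10 and 15.16 after LPS, and 15.60 and 15.64 after LPS+inhibitor, so LPS+inhibitor lay between the other groups. With LPS it was 1.75-fold lower, a log2 difference of −0.80 (standard error 0.058, adjusted p = 0.00518), and the other 2 probes gave −0.80 (adjusted p = 0.00853) and −0.57 (adjusted p = 0.00916). As for Sdhb, 75th percentile scaling was the only one of 17 alternatives under which it did not pass (−0.22, adjusted p = 0.182).

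Ndufa4 and AA467197 are related small proteins. AA467197, also known as Nmes1 and no member by the rule, is known to be induced in inflammation and to take the place of Ndufa4 in complex IV. Ndufa4 (probe at chr6:11850423-11850482, mm9) measured 13.32 and 13.39 on the untreated arrays, 12.93 and 12.98 after LPS, and 13.18 and 13.32 after LPS+inhibitor. Its difference with LPS was −0.40 (standard error 0.077, adjusted p = 0.0388), and it was 0.080 with 75th percentile scaling. AA467197 read 10.41 and 10.98 on the untreated arrays, 15.05 and 15.64 after LPS, and 12.59 and 13.71 after LPS+inhibitor. It rose 25.1-fold with LPS, a log2 difference of 4.65 (standard error 0.49, adjusted p = 0.00998), and lay 4.63 to 4.97 higher under the 6 scalings. This passed under 14 of the 17 alternatives, with a largest adjusted p of 0.0578. With LPS+inhibitor it was lower than with LPS on both arrays, with a difference of −2.19 (standard error 0.49, adjusted p = 0.0832) that missed the threshold. This difference passed under 4 of the 17 alternatives and stayed between −2.74 and −1.62.

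**Figure D3:**
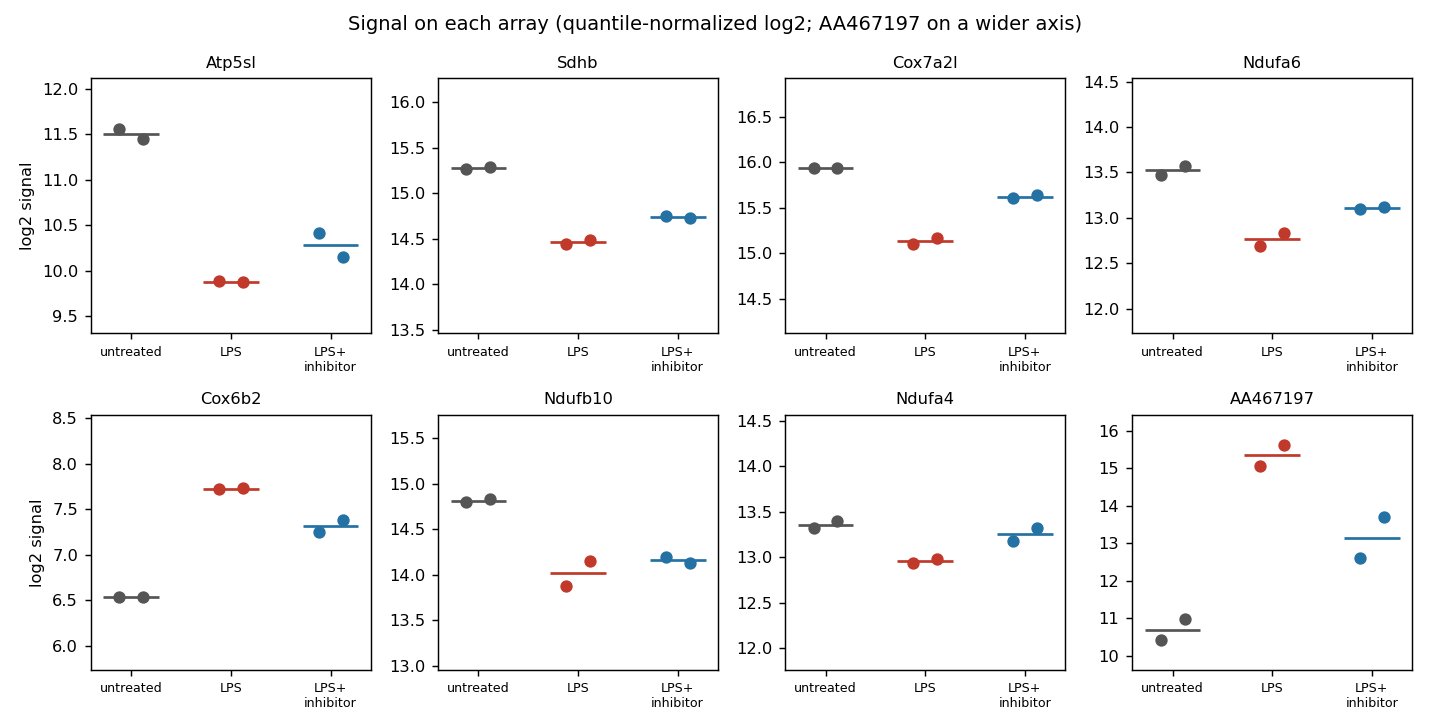
Quantile-normalized log2 signal (vertical axis) of 8 genes on each of the 6 arrays, with the arrays of a group as points and their mean as a line. Axes span the same range except that of AA467197, which is wider. Atp5sl, Sdhb, Cox7a2l and Ndufa6 are highest in untreated cells and lowest with LPS, and Cox6b2 and AA467197 run the opposite way.

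In complex V, the catalytic core subunits Atp5a1, at −0.26 (adjusted p = 0.238), and Atp5b, at −0.23 (adjusted p = 0.442), did not pass with LPS. The central stalk subunit Atp5c1 was called lower, at −0.63 (standard error 0.13, adjusted p = 0.0455), or −0.012 with 75th percentile scaling. The membrane ring of the synthase is made of a protein encoded by 3 genes. Atp5g2 measured 16.18 and 16.36 on the untreated arrays, 15.56 and 15.68 after LPS, and 15.68 and 15.62 after LPS+inhibitor, and differed by −0.65 (standard error 0.094, adjusted p = 0.0205) with LPS, or −0.071 with 75th percentile scaling. Atp5g1 differed by −0.50 (adjusted p = 0.0304), or 0.095 with 75th percentile scaling, and Atp5g3 by −0.18 (adjusted p = 0.526). The differences between these 3 genes were not tested.

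Of the members that are not subunits, Atp5sl (probe at chr7:26410510-26410569, mm9) had the lowest difference with LPS of all 90 members under each of the 6 scalings. It measured 11.56 and 11.45 on the untreated arrays, 9.89 and 9.87 after LPS, and 10.42 and 10.15 after LPS+inhibitor, with no overlap between groups. It fell 3.09-fold with LPS, a log2 difference of −1.63 (standard error 0.12, adjusted p = 0.00502), and passed under all 17 alternatives, between −1.70 and −1.32. Ndufaf1 was called lower as well, at −0.54 (standard error 0.10, adjusted p = 0.0358), and passed under 3 of the 6 scalings. Ndufaf4 gave −0.26 (adjusted p = 0.276) on its brightest probe and −0.92 (adjusted p = 0.0149) on a dimmer one.

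Many of the calls named above were lost under alternatives other than 75th percentile scaling. Of the 17 alternatives, Ndufb10 passed under 12, Uqcrq under 12, Ndufv1 under 11, Ndufv3 under 10, Uqcr10, Ndufa4 and Atp5g2 under 9, Ndufaf1 under 7, Sdhd under 6, and Atp5c1 and Atp5g1 under 5. Of 17 named genes called with LPS, AA467197 among them, 8 were still called with the deposited values and 6 with cyclic loess. Over all genes, 12.8% were called lower and 7.98% higher in the main fit. These shares were 8.85% and 6.47% with the deposited values, and 9.27% and 9.4% with cyclic loess. When 1 untreated or 1 LPS array was left out, which leaves 1 array in that group, fewer of the named genes were called. Over all genes, too, fewer were called in those fits.

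Several probes were on the array for 30 members. Of their 41 dimmer probes that were above background on all arrays, 37 had the sign of the brightest probe for LPS minus untreated and 4 the opposite sign, and 30 lay within 0.25 of it. Among the 4 were probes of Cox7c, Ndufb5 and Ndufv3.

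The second comparison asks how HBX41,108 changed the response to LPS. Among the members 0 were called lower and 1, Cox7a2l, was called higher (1.11%). At an adjusted p of 0.05, over all genes 4.28% were called lower and 5.51% higher, among genes above background 7.44% and 9.74%, and among genes with a mean log2 of at least 12 6.76% and 10.2%. The share of members called was below each of these. At an unadjusted p under 0.05, limma gave 3 members lower (3.33%) and 19 higher (21.1%), against 11.7% and 14.3% of all genes. Of the 70 members with a mean log2 of at least 12, 25.7% were higher at that threshold, against 30.8% of all genes that bright. The median difference over the 90 members was 0.13, with 71 above 0, while the other bright genes had a median of 0.16. With 75th percentile scaling the median of the members was −0.021, with 41 above 0. The medians of complexes I to V ran from 0.10 in complex IV to 0.19 in complex II under quantile normalization and from −0.063 to 0.025 with 75th percentile scaling.

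Cox7a2l was higher with LPS+inhibitor than with LPS by 0.49 (standard error 0.058, adjusted p = 0.0261), and its replicate pairs differed by 0.50 and 0.48. Its other probes gave 0.38 (adjusted p = 0.0706) and 0.51 (adjusted p = 0.0239). The difference was above 0 under all 17 alternatives, from 0.29 to 0.56, but it passed under only 6 of them. In a fit of the LPS and LPS+inhibitor arrays alone, or without untreated replicate 1 or 2, 0 genes in all passed in this comparison. Leaving out any 1 of the 6 arrays, Cox7a2l did not pass. Cox6b2 differed by −0.41 (adjusted p = 0.0506), Sdhb by 0.28 (adjusted p = 0.0709), Ndufa6 by 0.34 (adjusted p = 0.0907) and Atp5sl by 0.40 (adjusted p = 0.138), none of which passed in the main fit. Of the 17 alternatives, Cox6b2 passed under 4, between −0.58 and −0.35 in all fits, Atp5sl under 1, and Sdhb and Ndufa6 under 0.

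The third comparison sets LPS+inhibitor against untreated cells and shares arrays with both others. With quantile normalization 15 members (16.7%) were called lower and 1 (1.11%) higher, against 8.72% and 6.15% of all genes. The 1 called higher was Cox6b2, at 0.78 (adjusted p = 0.0111). Among those called lower were Atp5sl, at −1.22 (adjusted p = 0.0114), Sdhb, at −0.54 (adjusted p = 0.0138), Atp5g2, at −0.62 (adjusted p = 0.0287), and Cox7a2l, at −0.32 (adjusted p = 0.0443). The median of the members was −0.24 and that of the other bright genes −0.11. At an unadjusted p under 0.05, limma gave 45.7% of the 70 members with a mean log2 of at least 12 lower and 0% higher. Of all genes that bright, 28.6% were lower and 17.9% higher at that threshold. With 75th percentile scaling the 2 medians were 0.069 and 0.24. Under that scaling 3 members (3.33%) were called lower and 5 (5.56%) higher, against 9.65% and 35.1% of all genes. Without untreated replicate 1 or 2 those called lower numbered 0, against 2.72% and 1.6% of all genes. Without LPS replicate 1 or 2 they numbered 6 (6.67%), against 5.57% and 5.59%. Without LPS+inhibitor replicate 1 or 2 they numbered 3 (3.33%) or 2 (2.22%), against 5.35% and 5.19%.

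Other genes of the pathway were taken from lists drawn up by their known roles. The 13 subunits encoded in mitochondrial DNA gave 0 calls in limma in either direction, for LPS or for the inhibitor. Of all genes, 12.8% were called lower and 7.98% higher with LPS, and 4.28% and 5.51% with the inhibitor. At an unadjusted p under 0.05 limma gave 0 lower and 0 higher with LPS, against 20.6% and 12.5% of all genes. With the inhibitor it gave 0 and 0, against 11.7% and 14.3%. With the replicate as a block, 13.5% of all genes were called lower with LPS, and so were 2 of these subunits. Their replicates lay far apart, for instance at 14.15 and 15.02 for ND4 on the untreated arrays, and the files place 6 of their 13 probes on chromosome 1 and not on the mitochondrial genome. A list of 11 electron carriers, inhibitors and related genes of the chain held AA467197 and Cyc1, which the naming rule does not take. All 11 were above background on all arrays. Among such genes 23.9% were called lower and 14.1% higher with LPS, and over all genes 12.8% and 7.98%. Of the 11, 4 were called lower and 3 higher. Without untreated replicate 1 these counts were 2 and 0 (all genes 5.93% and 4.02%), without untreated replicate 2 they were 0 and 1 (4.72% and 3.3%), without LPS replicate 1 they were 3 and 2 (5.86% and 5.36%), and without LPS replicate 2 they were 3 and 1 (7.39% and 6.05%). They were 2 and 3 with 75th percentile scaling, where 11.6% and 35% of all genes were called, and with the deposited table, where 8.85% and 6.47% were. Cycs, which encodes cytochrome c, rose 1.99-fold (standard error 0.12 on the log2 scale, adjusted p = 0.0137). Gpd2, the glycerol phosphate dehydrogenase that feeds electrons to ubiquinone, read 8.21 and 8.27 on the untreated arrays, 10.94 and 10.78 after LPS, and 8.88 and 9.53 after LPS+inhibitor. It rose 6.15-fold with LPS, a log2 difference of 2.62 (standard error 0.24, adjusted p = 0.00764), and with the inhibitor its difference from LPS was −1.65 (standard error 0.24, adjusted p = 0.0364). Coq9, needed to make ubiquinone, at −1.06 (adjusted p = 0.00809), and Dhodh, which passes electrons from pyrimidine synthesis to it, at −0.92 (adjusted p = 0.0101), fell with LPS. Atpif1, the inhibitor of the synthase, was called lower under quantile normalization, at −0.53 (adjusted p = 0.0119), and was at 0.021 with 75th percentile scaling.

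Of 25 assembly factors on the array, 23 were above background on all arrays. Among genes above background 23.9% were called lower and 14.1% higher with LPS, and over all genes 12.8% and 7.98%. Of the 25 assembly factors, 9 were called lower and 2 higher. Under 75th percentile scaling 8 were called lower and 2 higher, against 11.6% and 35% of all genes. Centring on bright genes called 8 lower and 7 higher, against 9.47% and 32.2%. The counts were 3 and 1 without untreated replicate 1 (all genes 5.93% and 4.02%) or 2 (4.72% and 3.3%), and 4 and 1 without LPS replicate 1 (5.86% and 5.36%) or 2 (7.39% and 6.05%). Ecsit, which acts both in complex I assembly and in TLR signaling, read 11.18 and 11.27 on the untreated arrays, 9.70 and 9.84 after LPS, and 10.56 and 10.60 after LPS+inhibitor. It fell 2.75-fold with LPS, a log2 difference of −1.46 (standard error 0.078, adjusted p = 0.00365), and was higher by 0.81 with the inhibitor (standard error 0.078, adjusted p = 0.0193). Sdhaf1, which helps to insert the iron-sulfur clusters of Sdhb, fell by 1.39 (standard error 0.11, adjusted p = 0.00598), and Oxa1l, the inner membrane insertase, fell by 1.16 (standard error 0.079, adjusted p = 0.00487). The complex IV copper chaperone Sco2 fell by 1.15 with LPS (adjusted p = 0.0152) and was higher by 1.13 with the inhibitor (adjusted p = 0.0299). Cox18, which helps to insert a complex IV subunit, ran the opposite way, with 1.30 (standard error 0.10, adjusted p = 0.00589) and −0.73 (adjusted p = 0.0337). With LPS, Ecsit, Sdhaf1, Oxa1l and Cox18 passed under all 17 alternatives, and Gpd2 missed under 2 of them, with a largest adjusted p of 0.0524. Coq9 and Dhodh passed under 16 of the 17, Cycs under 14 (largest adjusted p = 0.0709), Sco2 under 13 (largest adjusted p = 0.0832) and Atpif1 under 12. For the inhibitor, 4.28% of all genes were called lower and 5.51% higher, and of genes above background 7.44% and 9.74%. Of the assembly factors, 3 were called lower and 2 higher. These counts were 0 and 0 with only the 2 groups in the fit, where 0% of all genes passed. They were 0 and 1 with the deposited table, against 3.55% and 3.82% of all genes. With the replicate block they were 1 and 2, against 3.23% and 4.09%. Leaving out 1 array, which leaves 1 array in a group, the median over the assembly factors ran from 0.038 to 0.20. No assembly factor passed without LPS replicate 1, LPS+inhibitor replicate 1 or either untreated array. Without an untreated array no gene of any kind passed. Without LPS replicate 2 or LPS+inhibitor replicate 2, some assembly factors did. The inhibitor differences of Gpd2 and Sco2 passed under 11 of the 17 alternatives, and those of Ecsit and Cox18 under 10.

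**Figure D4:**
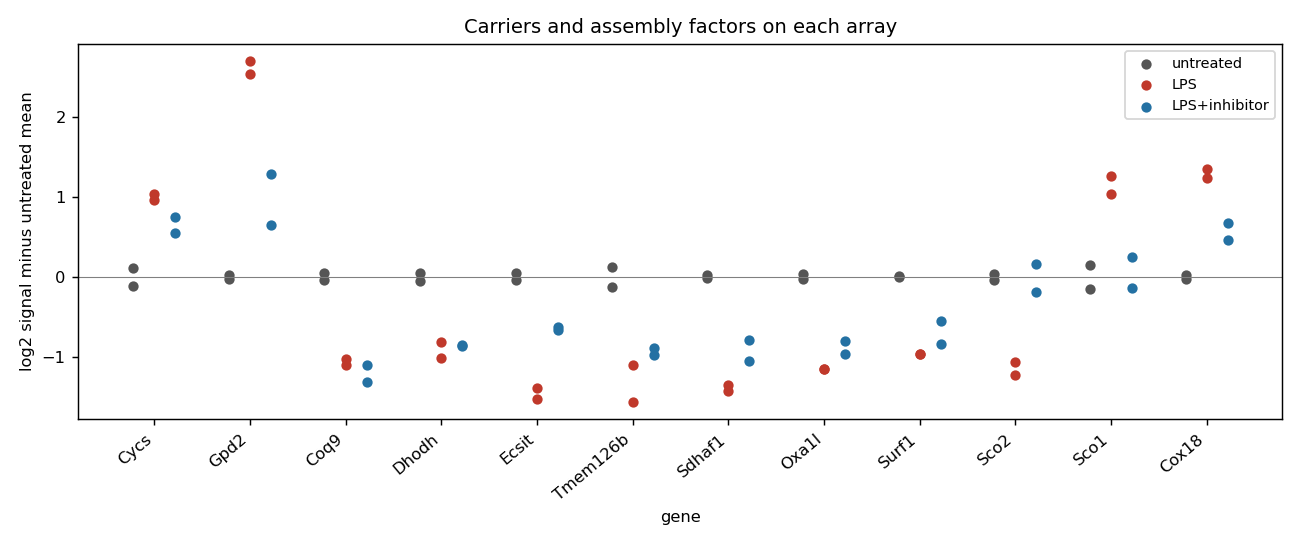
Log2 signal minus the mean of the untreated arrays (vertical axis) for 4 carriers and 8 assembly factors, each point 1 array, by group. Gpd2, Sco1, Cox18 and Cycs lie above the untreated arrays with LPS, while Ecsit, Sdhaf1, Oxa1l, Surf1, Sco2, Tmem126b, Coq9 and Dhodh lie below them.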

How the data were processed

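Murine bone marrow–derived macrophages were measured on 6 Agilent 1-color arrays, 2 per group. The authors deposited scanner output with background-corrected spot intensity, and normalized log2 values. Per the file headers, Feature Extraction 10.7.3.1 and an mm9 design were used. Here, log2 of the processed signal was quantile-normalized over 59305 non-control spots, outlier spots were left out, spots of a probe were averaged, and all 6 arrays were fitted together with limma 3.58.1 in R 4.3.3. Benjamini-Hochberg adjustment ran over 55680 probes, at a threshold of 0.05. The probe with the highest mean stood for a gene. The named genes were a list of main subunits and isoforms, plus, per complex and in the first 2 comparisons, the 3 lowest and 3 highest members among those past the threshold, well above background in at least 1 group and not overlapping. A gene of that list is not reported here. The members and lists were chosen with earlier results of these data known. The fit was tested on simulated data. Alternatives were 75th percentile scaling, normexp (offset 50), the deposited table, leaving out dim probes, keeping flagged spots, a trended prior, 2-group fits, a replicate block, leaving out each array, averaging probes, and, added after seeing the data, cyclic loess and centring on genes with a mean log2 of at least 12.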

Additional observations from a re-analysis of the deposited data

How the results depend on the processing

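The direction of the family as a whole rested on the scaling, and the cause was not tested. Values are given for LPS minus untreated, LPS+inhibitor minus LPS, and LPS+inhibitor minus untreated, in that order. With 75th percentile scaling the medians over the members were 0.11, −0.021 and 0.069, with 3, 0 and 3 called lower and 5, 0 and 5 higher (all genes 11.6, 4.08 and 9.65% lower, 35, 4.93 and 35.1% higher). Under it, for LPS, Cox5a was at 0.43, Ndufa4 at 0.080, Atp5g1 at 0.095, Uqcrq at 0.059 and Uqcr10 at 0.089. Cyclic loess gave medians of −0.066, −0.0087 and −0.076, with 5, 0 and 5 lower and 1, 0 and 2 higher (all genes 9.27, 4.93 and 7.28% lower, 9.4, 4.99 and 7.25% higher). Centring on bright genes gave −0.085, −0.040 and −0.10, with 13, 3 and 7 lower and 3, 0 and 1 higher, the 3 being Cox6b2 and, above background on 0 arrays, Cox7b2 and Cox8c (all genes 9.47, 6.23 and 6.81% lower, 32.2, 3.93 and 7.61% higher). Normexp gave −0.36, 0.12 and −0.22, with 42, 1 and 24 lower and 1, 3 and 1 higher (all genes 15.3, 6.83 and 11.5% lower, 8.85, 8.27 and 7.87% higher). The deposited table gave −0.36, 0.13 and −0.20, with 7, 0 and 1 lower and 1, 0 and 0 higher (all genes 8.85, 3.55 and 6.47% lower, 6.47, 3.82 and 4.94% higher). With only the 2 groups compared, 25, 0 and 6 were lower and 1, 0 and 1 higher (all genes 11.6, 0 and 5.62% lower, 7.42, 0 and 3.87% higher). Averaging the probes of a gene gave −0.36, 0.13 and −0.20, with 36, 1 and 14 lower and 1, 1 and 1 higher (all genes 13.4, 5.22 and 9.13% lower, 8.74, 6.26 and 6.93% higher).

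Leaving out 1 array, members called lower ranged from 3 to 25, from 0 to 1 and from 0 to 6. Those called higher ranged from 1 to 1, from 0 to 0 and from 0 to 1. The medians ranged from −0.43 to −0.35, from 0.074 to 0.17 and from −0.28 to −0.19. A group left with 1 array was assumed to vary like the others.

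Same-numbered arrays of the groups shared a slide row and deviated together (r = 0.47, 0.40 and 0.42 over 20721 probes), but no label says that a number marks a shared experiment. With the replicate block, 38, 0 and 13 members were called lower and 1, 1 and 1 higher (all genes 13.5, 3.23 and 9.42% lower, 8.43, 4.09 and 6.35% higher), and the medians were −0.39, 0.13 and −0.24. Leaving out dim probes, keeping flagged spots and the trended prior moved none of these counts by over 1.5 times.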

Other observations

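Among 15 regulators of mitochondrial gene expression, listed for their known roles, 3 were called lower and 2 higher with LPS, beside 12.8% and 7.98% of all genes, and 23.9% and 14.1% of genes above background on all arrays. With the inhibitor 0 were called lower and 2, Tfb2m and Peo1, higher, beside 4.28% and 5.51% of all genes. Of genes above background on all arrays those shares were 7.44% and 9.74%. Tfb2m, the factor that opens mitochondrial promoters, read 9.68 and 9.57 on the untreated arrays, 8.59 and 8.70 after LPS, and 9.45 and 9.51 after LPS+inhibitor. It fell by 0.98 on the log2 scale with LPS (standard error 0.078, adjusted p = 0.00608, limma) and was higher by 0.84 with the inhibitor (standard error 0.078, adjusted p = 0.0183). Polrmt, the mitochondrial RNA polymerase, fell by 0.94 (standard error 0.073, adjusted p = 0.00586) and differed by −0.016 (adjusted p = 0.973) with the inhibitor. Peo1, now called Twnk, the mitochondrial DNA helicase, read 6.52 and 6.30 on the untreated arrays and 6.25 and 6.08 after LPS+inhibitor, and was not well above background with LPS. On the quantile-normalized scale it was at least 3.80-fold higher in untreated cells than with LPS and at least 3.20-fold higher with LPS+inhibitor than with LPS. The adjusted p of these comparisons, 0.00322 and 0.0110, came from limma on the measured values and do not belong to the bounds. For these bounds the LPS level was taken, per array, as the higher of the lowest signal well above background and the probe's own. With normexp, whose offset is added to every value before log2 is taken, the differences of Peo1 were smaller, at −0.88 and 0.68, so the bounds hold for the quantile-normalized scale only. For LPS, Tfb2m, Polrmt and Peo1 passed under all 17 alternatives. For the inhibitor, Tfb2m passed under 10 of them and Peo1 under 14. The comparison of LPS+inhibitor with LPS had 0 calls over all genes with only the 2 groups in the fit.

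The 2 regulators called higher with LPS were Hif1a, the oxygen-sensitive subunit of HIF-1, at 1.55 (standard error 0.27, adjusted p = 0.0310), and Ppargc1b, a coactivator of respiratory genes, at 2.35 (standard error 0.47, adjusted p = 0.0444). Ppargc1b read 4.55 and 5.39 on the untreated arrays, 7.15 and 7.49 after LPS, and 4.59 and 5.58 after LPS+inhibitor, a low signal throughout, and its difference of −2.23 with the inhibitor did not pass (adjusted p = 0.0757). Without an untreated or an LPS array, which leaves 1 array in that group, neither of them passed. With only the 2 groups in the fit, 3 regulators were called lower and 1 higher with LPS, beside 11.6% and 7.42% of all genes. Over all fits the LPS difference ran from 1.38 to 1.86 for Hif1a and from 1.18 to 2.74 for Ppargc1b. The inhibitor difference of Ppargc1b ran from −2.75 to −1.07. Hif1a missed the threshold under 4 of the 17 alternatives and Ppargc1b under 7. Nrf1, at 0.12 (adjusted p = 0.638), Gabpa, at 0.25 (adjusted p = 0.495), and Tfam, at −0.30 (adjusted p = 0.397), did not pass with LPS.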
